A study of Mus musculus with 8 samples.

Results

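The cultured CD8 T cells of this study were compared by whether they had taken up mitochondria from bone marrow stromal cells (BMSCs). Activated CD8 T cells of 3 donor mice, labelled as spleen cells, had been grown together with BMSCs whose mitochondria carried the red fluorescent protein dsRed. A sort then divided each donor's cells into those with dsRed, called MitoPositive, and those without it, called MitoNegative, and both were sequenced directly (day 0) in 1 droplet library. The members of the comparison were found by their barcodes: at least 500 genes, less than 15% mitochondrially encoded UMIs (unique molecular identifiers, each counting 1 captured RNA molecule), and a top hashtag with at least 10 UMIs and at least 3 times those of the next hashtag. This gave 6 hashtagged samples of the 18 in the series and 5610 cells of 16404. The MitoPositive samples of donors 1, 2 and 3 held 977, 937 and 1025 cells, and the MitoNegative samples 951, 823 and 897. Both groups shared the donors, the activation and the culture with BMSCs, so the comparison is between T cells of the same cultures, and T cells grown without BMSCs were not analysed here. The strain and age of the donors are not given in the sources used here.

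T cells can receive mitochondria from stromal cells through thin, actin-based membrane bridges called tunnelling nanotubes, and imported mitochondria can add to the respiratory capacity of the recipient. After activation, CD8 T cells leave quiescence, copy their genome, divide, and move from a naive or memory-like programme (Klf2, Lef1, Tcf7) towards an effector programme (granzymes, cytokines, Tbx21, Batf family factors). The question behind the comparison, per the series title, is how mitochondrial transfer relates to T cell differentiation and function.

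The labels held 2 maps of the hashtags: the series design, the deposited readme and the deposited hashtag list gave hashtags 1, 3 and 5 to MitoPositive cells, whereas the extraction protocol gave them hashtags 1 to 3. The first map was used. With hashtags 1 to 3 set against 4 to 6, edgeR passed 0 genes, and 378 had an unadjusted p below 0.05. The samples held 7062927 to 10289787 UMIs in MitoPositive cells, against 5530470 to 6182040 in MitoNegative cells (exact permutation test, two-sided p = 0.1, the smallest possible). The median UMIs per cell were 6928, 8322 and 8599 against 5875, 7392 and 7187 (exact permutation test, two-sided p = 0.3). Both totals and medians were higher in MitoPositive samples in 3 of 3 donors. Cells with a Cd3d, Cd3e or Cd3g UMI made up 97.0% to 99.1% of MitoPositive and 96.5% to 98.8% of MitoNegative samples, so the CD8 T cell label fits the marker RNA. Cells with a Cd8a or Cd8b1 UMI made up 94.3% to 95.8% and 95.9% to 96.8%. The 8 defining stromal markers, among them Col1a1, Lepr and Pdgfrb, summed to 0.142 to 0.451 CPM (UMIs of a gene for every 1000000 UMIs of the sample) in MitoPositive and 0.162 to 0.723 CPM in MitoNegative samples. The whole stromal list, 25 genes of which the T cell gene Thy1 alone was tested, summed to 445.0 to 470 CPM against 439 to 451 CPM (exact p = 0.2). In summed samples, fewer cells expressing a gene and less RNA of it per cell cannot be told apart.

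Of 11436 genes tested, 654 were higher and 363 lower in MitoPositive cells at an adjusted p under 0.05 (edgeR's quasi-likelihood test, 3 against 3 samples). These were 5.72% and 3.17% of the genes tested, and 8.89% together. All fold changes are on the log2 scale, MitoPositive over MitoNegative, and levels are CPM after TMM scaling, unless another scale is named. Changes were mostly small, with a median size of 0.58 among the genes that passed: 225 of the higher genes exceeded 1 and 65 of the lower genes were under -1. With donor as a block, which compares MitoPositive with MitoNegative cells within each mouse, 1424 genes were higher and 985 lower (12.5% and 8.61%), and 1016 of the 1017 calls were kept. Without robust estimation of the spread, an alternative chosen after the values were seen, 690 were higher and 369 lower (6.03% and 3.23%). The MitoPositive and MitoNegative values did not overlap for 27.7% of all genes tested, so a lack of overlap is common here. The count fell to 461 without MitoPositive replicate 2, to 609 without MitoPositive replicate 3, and to 507 and 443 without MitoNegative replicates 1 and 2, whereas it was 1651 without MitoPositive replicate 1. Without both samples of donor 2 it was 88.

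Markers of other lymphocytes and of myeloid cells differed between the groups in several genes, and their part in the results below was not tested. The whole list of NK and gamma delta T cell markers, 8 genes of which 5 were tested, summed without TMM scaling to 93.1 to 112 CPM in MitoPositive and 79.4 to 80.5 CPM in MitoNegative samples (exact p = 0.1). Its genes split: the gamma delta receptor constant genes Tcrg-C2 (0.91) and Tcrg-C4 (0.75) rose, the NK cell receptor gene Klre1 fell by 0.98, and Eomes, which memory CD8 T cells also express (-0.68, adjusted p = 0.20), did not pass. Trdc, the delta receptor constant gene, gave nearly all of the sum of the 4 defining markers, at 82.8, 59.7 and 49.9 CPM in MitoPositive samples of donors 1, 2 and 3, against 42.8, 36.2 and 35.3 CPM in MitoNegative samples. Its values did not overlap, and it did not pass (0.74, adjusted p = 0.074) but passed with donor as a block (1.1e-11). The defining NK marker Ncr1 had 0 UMIs. The whole myeloid list, 14 genes with 3 tested, summed to 191 to 206 CPM against 181 to 202 CPM, mostly from Cst3 and Ctss. Cst3, a secreted protease inhibitor, rose by 0.49, and Ctss did not pass (-0.22, adjusted p = 0.065, and 0.0038 with donor as a block). The whole B cell list, 9 genes with 2 tested, summed to 135 to 192 CPM against 184 to 244 CPM, mostly from Ighm, the IgM heavy chain gene (-0.41, adjusted p = 0.099, and 3.0e-08 with donor as a block). The whole CD4 T cell list, 7 genes with 2 tested, summed to 228 to 341 CPM against 285 to 385 CPM. Most of this sum came from Ctla4 (-0.23, adjusted p = 0.44, and 0.00062 with donor as a block). Zbtb7b, the factor that directs the CD4 lineage, rose by 1.23, at 8.59 ± 0.53 CPM over the MitoPositive samples and 3.61 ± 1.78 CPM over the MitoNegative ones (SD, n = 3 each). The defining markers of these 3 cell types and of erythroid cells, among them Lyz2 and Cd4, summed to 2.69 CPM or lower for each type in every sample, and C1qa had 0 UMIs.

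**Figure D1:**
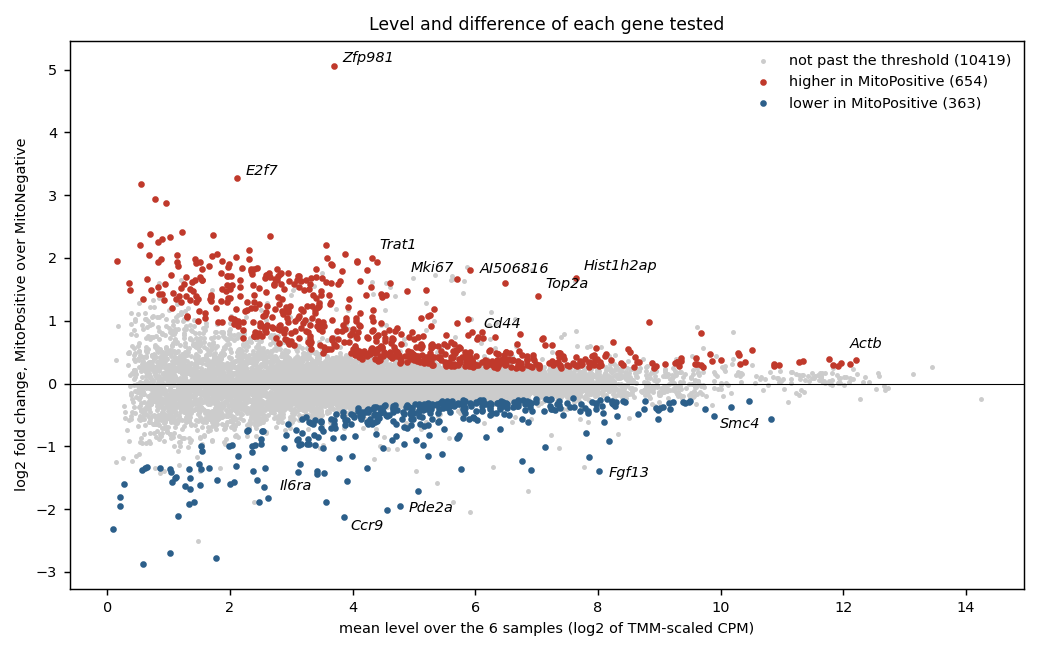
Each point is 1 of the 11436 genes tested, with its mean level over the 6 cultured samples (log2 of TMM-scaled CPM) on the x axis and its log2 fold change, MitoPositive over MitoNegative, on the y axis. Red and blue points are the 654 higher and 363 lower genes at an adjusted p under 0.05 by edgeR. Zfp981, at 5.06, stands apart from all others.

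The gene with the largest change was Zfp981, a member of the KRAB zinc finger gene family, whose proteins are generally transcriptional repressors. Zfp981 (ENSMUSG00000056300, chromosome 4, 146502027 to 146539395, plus strand, GRCm38) stood at 25.5, 23.4 and 26.3 CPM in MitoPositive samples of donors 1, 2 and 3, against 1.06, 0.853 and 0.323 CPM in MitoNegative samples. The groups lay far apart, and the spread between donors was small beside the gap. Its log2 fold change was 5.06 ± 0.24 (SE, n = 3 per group, edgeR adjusted p = 2.1e-09), and it was 4.83 in cells called G1. A Zfp981 UMI was found in 13.3%, 16.0% and 16.0% of MitoPositive cells, against 0.526%, 0.608% and 0.223% of MitoNegative cells. Among the 597, 651 and 759 MitoPositive and 587, 634 and 624 MitoNegative cells with at least 4000 UMIs, each thinned to that number and the shallower cells left out, the shares were 9.38%, 8.45% and 9.22% against 0.511%, 0% and 0%, where 0 of 634 and 0 of 624 cells allow up to 0.473% and 0.481%. Genes of this family have near-identical copies, and the counting could split or merge their reads, so the value may hold RNA of related genes.

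The 12 samples taken 7 days after transfer, which the comparison did not use, showed the same split of Zfp981 by arm. Without TMM scaling, it stood at 5.30, 8.40 and 9.23 CPM in spleen samples of the MitoPositive arm and at 12.2, 9.73 and 11.1 CPM in its tumor samples. The MitoNegative arm had 0.0376, 0.252 and 0 CPM in the spleen and 0, 0.992 and 0 CPM in the tumor. The lowest of the 9 MitoPositive samples was above the highest of the 9 MitoNegative samples, although the MitoPositive spleen sample of donor 3 held only 3 Zfp981 UMIs and the 6 transferred MitoNegative samples held 0 to 2. Each of the 3 comparisons (culture, spleen, tumor) had the smallest two-sided p that an exact permutation test of 3 against 3 samples can give, 0.1. Of 32285 genes in the files, 1 other, Tmem159, was higher in all 9 MitoPositive than in all 9 MitoNegative samples, and 0 were lower in all. Tmem159 separated them narrowly, with a lowest MitoPositive value of 5.52 CPM. The transferred MitoNegative samples were small in the tumor, with 30, 85 and 116 cells, and a count of 0 in the smallest allows up to 6.04 CPM, which is more than the lowest MitoPositive value in the spleen. These limits cover counting error only. The labels do not say whether the arms of a donor shared recipient mice.

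**Figure D2:**
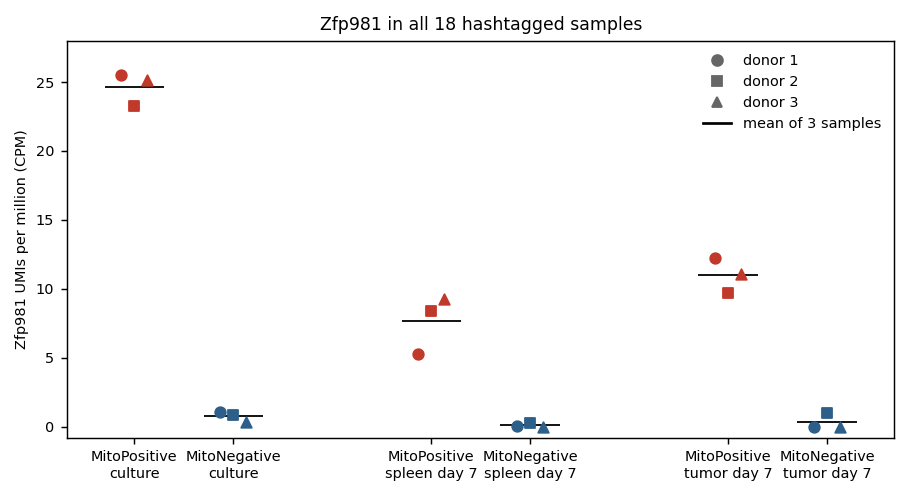
Zfp981 CPM without TMM scaling in all 18 hashtagged samples, with MitoPositive in red and MitoNegative in blue; symbols mark donors and bars the mean of 3 samples. The MitoPositive samples sit between 5.30 and 25.5 CPM and the MitoNegative samples between 0 and 1.08 CPM.

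Several other genes had large differences with little spread between donors. AI506816, a noncoding transcript on chromosome 5, stood at 93.3, 94.7 and 94.3 CPM in MitoPositive samples, against 23.4, 26.8 and 30.2 CPM in MitoNegative samples (1.81 ± 0.09, edgeR adjusted p = 3.4e-09). Its UMIs were found in 31.3% to 40.1% of MitoPositive and 12.2% to 16.1% of MitoNegative cells. Trat1, an adaptor that stabilises the T cell receptor complex, stood at 28.1, 37.6 and 30.1 CPM against 7.93, 8.02 and 8.06 CPM (2.00 ± 0.14, edgeR adjusted p = 3.7e-07). In the other direction, Fgf13, an intracellular member of the fibroblast growth factor family, stood at 145, 154 and 133 CPM in MitoPositive samples, against 389, 384 and 357 CPM in MitoNegative samples (-1.39 ± 0.08, edgeR adjusted p = 1.1e-08). The share of cells with a Fgf13 UMI was 35.6% to 38.6% against 55.2% to 60.0%. Pde2a, a phosphodiesterase that breaks down cyclic nucleotides, stood at 15.03, 10.3 and 8.82 CPM against 49.0, 42.6 and 37.7 CPM (-1.95 ± 0.17, edgeR adjusted p = 6.4e-05). None of these 4 genes overlapped between the groups, and in cells called G1 they kept nearly the same difference, at 1.74, 1.78, -1.31 and -1.78.

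At a mean of 20 CPM or more in 1 group, other large changes included rises in genes of DNA repair and mitosis. The genes that fell were of mixed kinds. Neil3, a DNA glycosylase, rose by 2.06, Rad51b, a factor of homologous recombination, by 1.93, and Cdca3 and Tpx2, both genes of mitosis, by 1.64 and 1.61. In cells called G1, which leave out cells scored as cycling, Rad51b (0.55), Cdca3 (0.92) and Tpx2 (1.06) did not pass, and Neil3 was not tested. Among those that fell were Ifitm10 (-1.55), Nsg2 (-1.36), Samd3 (-1.15), the ADP-ribosyltransferase gene Art2b (-1.12) and the noncoding transcripts Gm43698 (-2.02) and Gm30948 (-1.72). Gm30948 stood at 18.1, 17.7 and 11.7 CPM in MitoPositive samples, against 58.7, 51.2 and 44.8 CPM in MitoNegative samples.

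**Figure D3:**
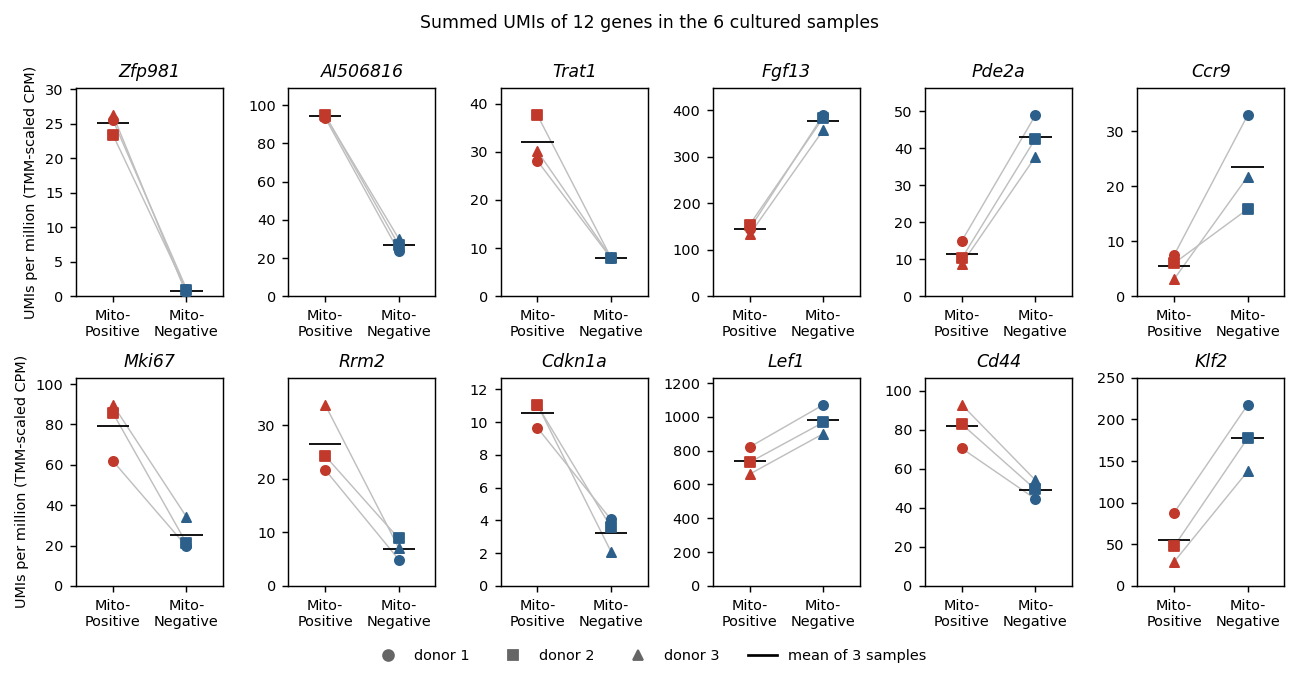
TMM-scaled CPM of 12 genes in the 6 cultured samples, MitoPositive on the left and MitoNegative on the right of each panel; symbols and grey lines mark the donors and bars the mean of 3 samples, and every axis starts at 0. The groups are separate in every panel, and the donor spread is narrow for AI506816 and Fgf13 and wide for Klf2, which did not pass the threshold.

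Genes on the cell cycle lists made up 94 of the 654 higher genes. In the spindle, kinetochore and cytokinesis list, which holds genes of mitosis, 36 of 53 tested members rose, 1 fell and 16 did not pass, with a median of 1.47. Replication histones followed with 15 of 20 higher and 0 lower (median 1.20), cyclins and cyclin-dependent kinases with 13 of 27 higher and 0 lower (median 0.85), origin licensing and replication fork genes with 20 of 35 higher and 0 lower (median 0.72), and deoxynucleotide synthesis with 5 of 11 higher and 0 lower (median 0.57). Over all genes tested, 5.72% were higher and 3.17% lower, and the median was -0.0035. With donor as a block, 50, 18, 21, 27 and 6 members of these lists were higher and 1, 0, 1, 0 and 0 lower. That fit called 12.5% of all genes tested higher and 8.61% lower. The lists were chosen with earlier results of these data known, so their counts describe the difference and are not separate support for it. Cells called S phase made up 19.96% to 23.02% of MitoPositive and 22.19% to 22.92% of MitoNegative samples. These shares overlapped, so the rise in replication genes came without a clear rise in cells called S phase. Cells called G1 made up 70.2% to 75.9% against 75.2% to 76.2%, which also overlapped. Cells called G2/M made up 4.09% to 6.73% against 1.09% to 1.895% (exact permutation test, two-sided p = 0.1, the smallest possible).

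Among licensing and fork genes, Cdc6, which loads the replicative helicase on origins, rose by 2.42 ± 0.43 (SE, n = 3 per group, edgeR adjusted p = 0.0023), from a low level: 2.27, 5.11 and 4.36 CPM in MitoPositive samples, against 1.06, 0.341 and 0.806 CPM in MitoNegative samples. Clspn, which relays the replication checkpoint, stood at 17.6, 21.2 and 20.8 CPM against 3.88, 4.60 and 7.58 CPM (1.88 ± 0.19). Mcm5, a subunit of the helicase, stood at 15.7, 15.9 and 22.1 CPM against 4.40, 7.504 and 9.84 CPM (1.30 ± 0.24). In each of these genes the highest MitoNegative sample lay below the lowest MitoPositive sample. Mcm10 (1.88), Uhrf1 (1.76) and Lig1 (1.41), which act in replication start, maintenance of DNA methylation and joining of Okazaki fragments, also rose. The change was uneven within the helicase: Mcm3 rose by 0.58, whereas Mcm2 (0.54), Mcm7 (0.40), Mcm6 (0.25) and Mcm4 (0.16) did not pass. Cdt1, a licensing factor, was the member with the lowest value, -0.22. For deoxynucleotides, Rrm2, the regulatory subunit of ribonucleotide reductase, stood at 21.7, 24.3 and 33.9 CPM against 4.93, 8.87 and 7.10 CPM (1.94 ± 0.22), and Tk1, Tyms and Rrm1 rose by 1.67, 1.12 and 0.85.

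Regulators of the cycle were among the genes that rose. E2f7, an atypical E2F factor that represses E2F targets late in S phase, had the largest change of any list member, with 8.22, 8.29 and 6.99 CPM in MitoPositive samples, against 0.705, 1.19 and 0.484 CPM in MitoNegative samples (3.28 ± 0.31, edgeR adjusted p = 1.9e-05). Its partner E2f8 rose by 2.36, and the mitotic factor Foxm1 by 1.54. Ccna2, the cyclin of S phase and G2, stood at 20.1, 24.6 and 35.6 CPM against 5.11, 5.97 and 9.84 CPM (1.94 ± 0.31), Ccnb1, the mitotic cyclin, at 16.0, 21.2 and 26.1 CPM against 4.05, 5.12 and 11.1 CPM (1.64 ± 0.36), and Cdk1 at 24.0, 26.5 and 37.1 CPM against 6.52, 12.8 and 10.97 CPM (1.54 ± 0.25). These separated the groups fully. The G1 cyclin Ccnd2 rose by only 0.35, while Ccnd3 (-0.18) and Ccne1 (0.22) did not pass. Among histones, Hist1h3c rose by 1.80 and Hist1h2ap by 1.68. Histone transcripts mostly lack long poly(A) tails and several copies are near identical, so poly(dT) capture and read assignment limit their values.

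Mki67, the proliferation marker, stood at 61.8, 85.6 and 89.7 CPM in MitoPositive samples, against 19.6, 21.1 and 34.2 CPM in MitoNegative samples (1.66 ± 0.26, edgeR adjusted p = 0.020). Top2a, which untangles chromosomes, stood at 147, 204 and 214 CPM against 60.3, 68.4 and 86.1 CPM (1.40 ± 0.19), and Hmmr, a spindle assembly factor, at 21.8, 32.1 and 33.95 CPM against 6.87, 6.31 and 11.9 CPM (1.81 ± 0.26). In both groups the donor 3 sample was the highest for Mki67, Top2a and Hmmr, so donors as well as groups differed. Checkpoint kinases Ttk (1.84) and Bub1b (1.82), condensin subunit Ncapd2 (1.17) and cytokinesis gene Anln (1.59) rose too. Large differences with wider donor spread, among them Birc5 (1.66, adjusted p = 0.090), Nusap1 (1.71, adjusted p = 0.083) and Stmn1 (1.81, adjusted p = 0.10), did not pass, and each passed with donor as a block. Smc4, a condensin subunit, went against the list, with 907, 803 and 647 CPM in MitoPositive samples, against 1231, 1140.2 and 989.9 CPM in MitoNegative samples (-0.51 ± 0.12, edgeR adjusted p = 0.023).

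Promoters of these genes carry sequence motifs that other work has tied to the cycle: the cell cycle homology region (TTTGAA) and the CCAAT box (CCAAT), typical of genes of G2 and mitosis, and the E2F site, searched as TTTNNCGC, typical of genes of S phase. They were searched on both strands, with overlaps allowed, in RefSeq promoter windows of GRCm38.p6, each from 250 bases before to 50 bases after a transcript start. TTTGAA was found in 73.5% of the 49 windows of 46 spindle list genes, in 12.1% of the 33 windows of 28 licensing genes and in 17.9% of all 32851 windows. TTTNNCGC was found in 18.4%, 48.5% and 5.17% of them, and CCAAT in 71.4%, 63.6% and 37.4%. In the 11162 windows matched to genes tested, TTTGAA was in 12.6%, TTTNNCGC in 8.64% and CCAAT in 37.9%. In genes called higher and lower, TTTGAA was in 17.4% and 17.2% of windows and TTTNNCGC in 12.6% and 5.72%. A match of letters is a description and not a bound site. Windows of 2 spindle list genes, with TTTGAA and CCAAT matches, and of 4 replication and E2F genes, with TTTNNCGC matches and, except in Cdc6, CCAAT matches, are shown 5′ to 3′ on the strand of the gene, with the matches of either strand in capitals.
Hmmr (chr11:40733388-40733687, minus strand): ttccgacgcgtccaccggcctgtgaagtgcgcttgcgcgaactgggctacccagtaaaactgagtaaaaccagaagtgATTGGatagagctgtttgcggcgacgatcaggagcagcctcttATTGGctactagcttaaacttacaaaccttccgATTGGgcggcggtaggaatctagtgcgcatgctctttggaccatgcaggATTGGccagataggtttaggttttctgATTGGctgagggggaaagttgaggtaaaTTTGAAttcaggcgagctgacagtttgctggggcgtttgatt
Mki67 (chr7:135716330-135716629, minus strand): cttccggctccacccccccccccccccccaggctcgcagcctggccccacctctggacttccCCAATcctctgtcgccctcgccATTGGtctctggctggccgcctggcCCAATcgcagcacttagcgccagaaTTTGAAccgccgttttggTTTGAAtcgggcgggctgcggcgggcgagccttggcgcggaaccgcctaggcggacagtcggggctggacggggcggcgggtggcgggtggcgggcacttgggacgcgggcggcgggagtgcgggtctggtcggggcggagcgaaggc
Cdc6 (chr11:98907901-98908200, plus strand): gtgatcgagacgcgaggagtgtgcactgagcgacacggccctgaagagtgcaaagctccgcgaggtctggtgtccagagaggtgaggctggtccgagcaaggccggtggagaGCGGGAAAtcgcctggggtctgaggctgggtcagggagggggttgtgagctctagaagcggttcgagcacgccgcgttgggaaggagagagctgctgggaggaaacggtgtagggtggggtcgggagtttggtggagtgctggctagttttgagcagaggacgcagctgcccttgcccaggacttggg
Mcm5 (chr8:75109259-75109558, plus strand): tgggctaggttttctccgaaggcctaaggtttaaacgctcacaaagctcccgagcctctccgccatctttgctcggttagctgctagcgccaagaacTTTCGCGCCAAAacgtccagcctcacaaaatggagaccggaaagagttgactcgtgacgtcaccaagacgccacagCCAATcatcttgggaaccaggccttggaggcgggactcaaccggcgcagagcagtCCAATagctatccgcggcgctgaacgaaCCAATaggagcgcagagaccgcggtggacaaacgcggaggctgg
E2f7 (chr10:110745189-110745488, plus strand): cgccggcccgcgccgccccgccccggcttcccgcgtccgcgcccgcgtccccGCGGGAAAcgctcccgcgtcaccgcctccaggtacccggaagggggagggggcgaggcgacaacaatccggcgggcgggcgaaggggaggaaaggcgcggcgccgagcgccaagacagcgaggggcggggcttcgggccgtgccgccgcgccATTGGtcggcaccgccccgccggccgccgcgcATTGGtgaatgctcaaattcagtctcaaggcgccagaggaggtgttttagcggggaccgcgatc
Clspn (chr4:126556730-126557029, plus strand): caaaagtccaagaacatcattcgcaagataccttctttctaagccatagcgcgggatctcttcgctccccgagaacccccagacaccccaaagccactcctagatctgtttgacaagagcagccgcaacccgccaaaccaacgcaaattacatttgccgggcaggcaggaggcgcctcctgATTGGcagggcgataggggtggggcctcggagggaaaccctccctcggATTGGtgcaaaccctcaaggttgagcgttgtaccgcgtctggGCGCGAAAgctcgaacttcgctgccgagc

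The share of cells with at least 10 UMIs of the spindle list, among the same deeper cells thinned to 4000 UMIs, went the other way from the list's genes. It was 25.1%, 21.97% and 20.8% in MitoPositive samples, against 31.2%, 27.8% and 26.1% in MitoNegative samples (exact permutation test, two-sided p = 0.1, the smallest possible). Smc4 gave 18.2% to 32.4% of the list's UMIs in MitoPositive and 42.3% to 57.6% in MitoNegative samples, and its part in the share was not tested. At a minimum of 5 UMIs the direction was the same, with 69.5%, 64.7% and 60.7% in MitoPositive samples, against 80.1%, 78.4% and 70.7% in MitoNegative samples. At a minimum of 20 UMIs the shares were 5.19%, 7.22% and 8.17% against 1.19%, 1.42% and 2.56%. Without Smc4, the tubulins and Stmn1, a trimming chosen after the values were seen, the share of cells with at least 10 UMIs was 5.53%, 6.91% and 9.09% in MitoPositive samples, against 1.02%, 1.10% and 2.08% in MitoNegative samples (exact p = 0.1). These cells were few in both groups, and the MitoPositive share was higher in 3 of 3 donors.

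Of 22 quiescence and brake genes tested, 5 rose and 2 fell (median -0.06), beside 5.72% higher and 3.17% lower of all genes tested. Cdkn1a, which encodes the cyclin-dependent kinase inhibitor p21, stood at 9.64, 11.01 and 11.05 CPM in MitoPositive samples, against 4.05, 3.58 and 2.10 CPM in MitoNegative samples (1.71 ± 0.22, edgeR adjusted p = 0.00026), and it was 1.68 in cells called G1. The antiproliferative gene Btg1 fell by 0.37 and Pik3ip1, an inhibitor of PI3 kinase, fell by 0.41, whereas Cdkn1b, which encodes p27, did not pass (-0.17). Klf2, a factor that maintains T cell quiescence and trafficking, had a wide gap and did not pass: 88.0, 47.7 and 29.1 CPM in MitoPositive samples, against 218, 178 and 138 CPM in MitoNegative samples (-1.72 ± 0.47, edgeR adjusted p = 0.12). Its values did not overlap between groups, but within each group they differed by donor, highest in donor 1 and lowest in donor 3. The related Klf3 stood at -1.89 ± 0.38 (adjusted p = 0.057). Klf2 and Klf3 passed with donor as a block (adjusted p = 0.045 and 8.6e-14) and without robust estimation of the spread (0.0020 and 0.00045).

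Of 21 naive and memory genes tested, 7 fell, 2 rose and 12 did not pass, with a median of -0.41. Over all genes tested, 3.17% fell and 5.72% rose. Lef1, a partner of Tcf7, stood at 822, 731 and 661 CPM in MitoPositive samples, against 1071, 967 and 899.9 CPM in MitoNegative samples (-0.41 ± 0.09, edgeR adjusted p = 0.0095). Txk, a Tec family kinase (-1.38), Myb (-1.23) and Sidt1 (-1.16) fell most among the members that passed, and Ccr7 and Bach2 fell by 0.37 and by 0.30. Dapl1 had the lowest value of the list and did not pass (-1.58, adjusted p = 0.0501), but passed with donor as a block (0.0034). Tcf7 (-0.32, adjusted p = 0.16) and S1pr1, the receptor for egress from lymphoid organs (-1.02, adjusted p = 0.16), did not pass and passed with donor as a block (adjusted p = 2.3e-06 and 2.9e-23). Il7r, the receptor for the survival cytokine interleukin 7, went the other way, at 570, 626 and 623 CPM in MitoPositive samples, against 434, 475 and 558 CPM in MitoNegative samples (0.31 ± 0.09), as did Cd28 (0.33). With donor as a block, 15 of the 21 were lower and 2 higher, against 8.61% and 12.5% of all genes tested.

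Homing receptors changed in both directions, with 5 of 15 lower and 2 higher (median -0.29), beside 3.17% and 5.72% of all genes tested. Ccr9, which guides T cells to the gut, stood at 7.51, 6.02 and 3.14 CPM in MitoPositive samples, against 32.9, 15.9 and 21.8 CPM in MitoNegative samples (-2.12 ± 0.39, edgeR adjusted p = 0.028). Ccr2 and Gpr183 fell by 0.71 and by 0.60, and Ccr7, which is on both lists, fell as given above. Ccr4, a skin and inflammation homing receptor, rose by 1.66 at a level under 5 CPM in every sample, and Cxcr3, the receptor for interferon-induced chemokines, rose by 0.42, with 178, 177 and 208 CPM against 135, 131 and 157 CPM.

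Of 15 effector transcription factors tested, 6 rose, 0 fell and 9 did not pass, with a median of 0.51. The shares over all genes tested, for this list and the granule and cytokine genes below, were 5.72% higher and 3.17% lower. Batf3 stood at 10.6, 13.4 and 20.6 CPM in MitoPositive samples, against 2.82, 4.78 and 7.26 CPM in MitoNegative samples (1.59 ± 0.36, edgeR adjusted p = 0.036). Bhlhe40, a regulator of cytokine production, stood at 18.01, 19.4 and 22.4 CPM against 7.05, 11.3 and 10.6 CPM (1.05 ± 0.16), and Rora (0.82), Irf4 (0.67), Ikzf2 (0.51) and Tbx21 (0.43) rose as well. Few products of effector cells passed. Among 15 granule genes, Srgn, the granule proteoglycan, rose by 0.34, and Prf1, which encodes perforin, fell: 8.79, 10.8 and 14.1 CPM in MitoPositive samples, against 15.5, 17.7 and 20.8 CPM in MitoNegative samples (-0.67 ± 0.17, edgeR adjusted p = 0.023). Gzma (1.63, adjusted p = 0.18) and Gzmb (1.29, adjusted p = 0.21) had higher values in each donor and did not pass, but passed with donor as a block (3.9e-32 and 1.4e-08). Ifng was near its detection limit, between 0.806 and 2.56 CPM over all samples, and 0 of 3 chemokine genes passed by edgeR (1 at an unadjusted p under 0.05, 1 called by DESeq2). Tnf (0.85), Mif (0.32) and Tgfb1 (0.30) rose, 3 of 7 cytokine genes.

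Among receptors, Il12rb1, a chain of the interleukin 12 receptor, stood at 12.6, 12.9 and 17.4 CPM in MitoPositive samples, against 5.29, 6.99 and 7.42 CPM in MitoNegative samples (1.13 ± 0.19, edgeR adjusted p = 0.0012). Il2ra, the high affinity interleukin 2 receptor chain, stood at 94.1, 79.1 and 73.9 CPM against 65.0, 62.9 and 65.5 CPM (0.35 ± 0.09). The interleukin 6 receptor genes fell, Il6ra by 1.44 and Il6st by 0.50, and 4 of 20 cytokine receptor genes rose and 2 fell. These counts and those below are set beside 5.72% higher and 3.17% lower of all genes tested. Feedback genes split: Socs2 rose by 1.27 and Cish by 0.91, both inhibitors of cytokine signalling, and Socs1 fell by 0.56. Btla, an inhibitory receptor, fell by 1.42, while Cd200r1 and Lag3 rose by 0.95 and by 0.60. Pdcd1 (1.21, adjusted p = 0.067) did not pass at 0.705 to 4.20 CPM. Costimulatory receptors Cd28, Icos (0.30) and Tnfrsf18 (0.30) rose, 3 of 11. Of the CD8 T cell identity genes, 2 of 14 fell, Cd5, an inhibitor of receptor signalling, by 0.39 and Cd8b1 by 0.27. Cd3e (-0.06) and Cd8a (-0.14) did not pass, and Cd8a passed with donor as a block (adjusted p = 0.043).

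In the nanotube, actin and talin list, which holds genes of the actin skeleton of nanotubes, 7 of 31 tested members rose, 0 fell and 24 did not pass, with a median of 0.20 and 30 members above 0. Actb stood at 4870.4, 5136 and 6055 CPM in MitoPositive samples, against 3756, 4245 and 4417 CPM in MitoNegative samples (0.37 ± 0.09, edgeR adjusted p = 0.019), and Actg1 (0.46), the actin severing gene Cfl1 (0.34), Coro1a (0.31), Rac2 (0.27) and the myosins Myo1g (0.37) and Myo1f (0.29) rose. Tln1, one of the talin genes, did not pass at 236, 251 and 259 CPM against 212, 234 and 238 CPM (0.13 ± 0.07, adjusted p = 0.34). Tln2 was under the filter on low counts, at 1.56, 0.568 and 0.507 CPM against 0.705, 1.36 and 1.45 CPM, with overlapping groups. Of 23 integrin and adhesion genes tested, 5 rose, 2 fell and 16 did not pass. For both lists, the shares over all genes tested were 5.72% higher and 3.17% lower. Cd44, the hyaluronan receptor and activation marker, stood at 70.5, 82.9 and 92.8 CPM in MitoPositive samples, against 44.6, 49.5 and 54.2 CPM in MitoNegative samples (0.74 ± 0.10, edgeR adjusted p = 0.00058), and Alcam (0.77) and Itgal, a chain of the integrin LFA-1 (0.30), rose too. Itga6 and Icam2 fell by 0.48 and by 0.38.

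Without donor as a block, few genes of the mitochondria themselves passed by edgeR, beside 5.72% higher and 3.17% lower of all genes tested. Without the limit on mitochondrially encoded UMIs, such RNA made up 2.82%, 2.87% and 2.76% of UMIs in MitoPositive samples, against 2.73%, 2.44% and 2.60% in MitoNegative samples, and the groups did not overlap (exact permutation test, two-sided p = 0.1, the smallest possible). In the cells used here, which the limit chose by this same value, the shares were 2.68%, 2.72% and 2.65% against 2.67%, 2.40% and 2.54%. Of the 13 mitochondrially encoded messages 0 passed by edgeR (4 at an unadjusted p under 0.05, 0 called by DESeq2), and 6 had positive values, with a median of -0.02. With donor as a block, 4 of them were higher and 2 lower, and in samples of equal cells and UMIs 3 were higher and 0 lower. The deposited counts do not tell messages of the BMSCs' mitochondria from those of the T cells' own. Among 28 genes for mitochondrial transport, fusion, fission and mitophagy, 0 passed by edgeR (1 at an unadjusted p under 0.05, 0 called by DESeq2, median 0.06), including Rhot1, the adaptor that links mitochondria to microtubule motors (0.05), Mfn1 (0.18) and Opa1 (-0.10). Nuclear complex I genes had 0 of 37 calls by edgeR (10 at an unadjusted p under 0.05, 0 called by DESeq2) and 31 positive values (median 0.12), and complexes II to V had 4 of 41 higher and 0 lower (median 0.16): Atpif1, an inhibitor of ATP synthase hydrolysis, rose by 0.62, and Cox5a, Cox5b and Atp5c1 by 0.45, 0.35 and 0.29. Of 78 mitochondrial ribosomal protein genes 2 rose (median 0.10), of 45 import and biogenesis genes Vdac3 rose (0.28) and Timm9 fell (by 0.47), and of 23 tricarboxylic acid cycle genes Suclg2 fell by 0.35. With donor as a block, 12.5% of all genes tested were higher and 8.61% lower. In that fit 12 of 37 complex I and 22 of 41 complex II to V genes were higher, and 0 and 1 were lower. In samples of equal cells and UMIs the medians of these 2 lists were 0.03 and 0.08.

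Of 24 glycolysis and lactate genes, 11 rose and 0 fell (median 0.25), beside 5.72% higher and 3.17% lower of all genes tested. Hk2, the inducible hexokinase, stood at 9.64, 9.42 and 11.9 CPM in MitoPositive samples, against 3.88, 6.14 and 5.00 CPM in MitoNegative samples (1.04 ± 0.20, edgeR adjusted p = 0.0039). Pgk1 stood at 147, 168 and 192 CPM against 95.3, 112 and 105 CPM (0.71 ± 0.10), the lactate exporter Slc16a3 rose by 0.87, and Tpi1, Aldoa, Pkm, Gapdh, Eno1 and Ldha rose by 0.62, 0.57, 0.44, 0.41, 0.37 and 0.30. The glucose transporters Slc2a1 (0.15) and Slc2a3 (0.11) and the hypoxia factor Hif1a (0.12) did not pass. Of 20 genes of serine, one-carbon and amino acid supply, Asns rose by 1.19, Psat1 by 0.91 and Phgdh by 0.63. Antioxidant genes had 4 of 20 higher, led by the peroxiredoxin Prdx4 (1.04). Acadl was the 1 of 16 fatty acid oxidation genes to rise (0.47), which is near the share of 5.72% over all genes tested.

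Growth, survival and interferon genes are set beside the shares over all genes tested, which were 5.72% higher and 3.17% lower. Myc did not pass (0.36, adjusted p = 0.077), and 0 of 28 ribosome biogenesis genes rose and 2 fell. Of 31 cytosolic ribosomal protein genes 3 rose and 0 fell (median 0.11). With donor as a block, ribosome biogenesis had 6 higher and 5 lower, and cytosolic ribosomal proteins 11 higher and 1 lower. Of the Bcl2 and death genes, Bcl2l11, which encodes the death activator Bim, fell by 0.53, with 59.1, 48.7 and 46.4 CPM in MitoPositive samples against 78.4, 72.1 and 70.8 CPM in MitoNegative samples. Of 32 interferon-stimulated genes 0 rose and 2 fell (median -0.08). With donor as a block, 2 were higher and 8 lower, against 12.5% and 8.61% of all genes tested. Cholesterol synthesis had 0 of 21 calls by edgeR (6 at an unadjusted p under 0.05, 0 called by DESeq2, median 0.14), and purine and pyrimidine synthesis 0 of 16 (1 at an unadjusted p under 0.05, 0 called by DESeq2, median -0.03).

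**Figure D4:**
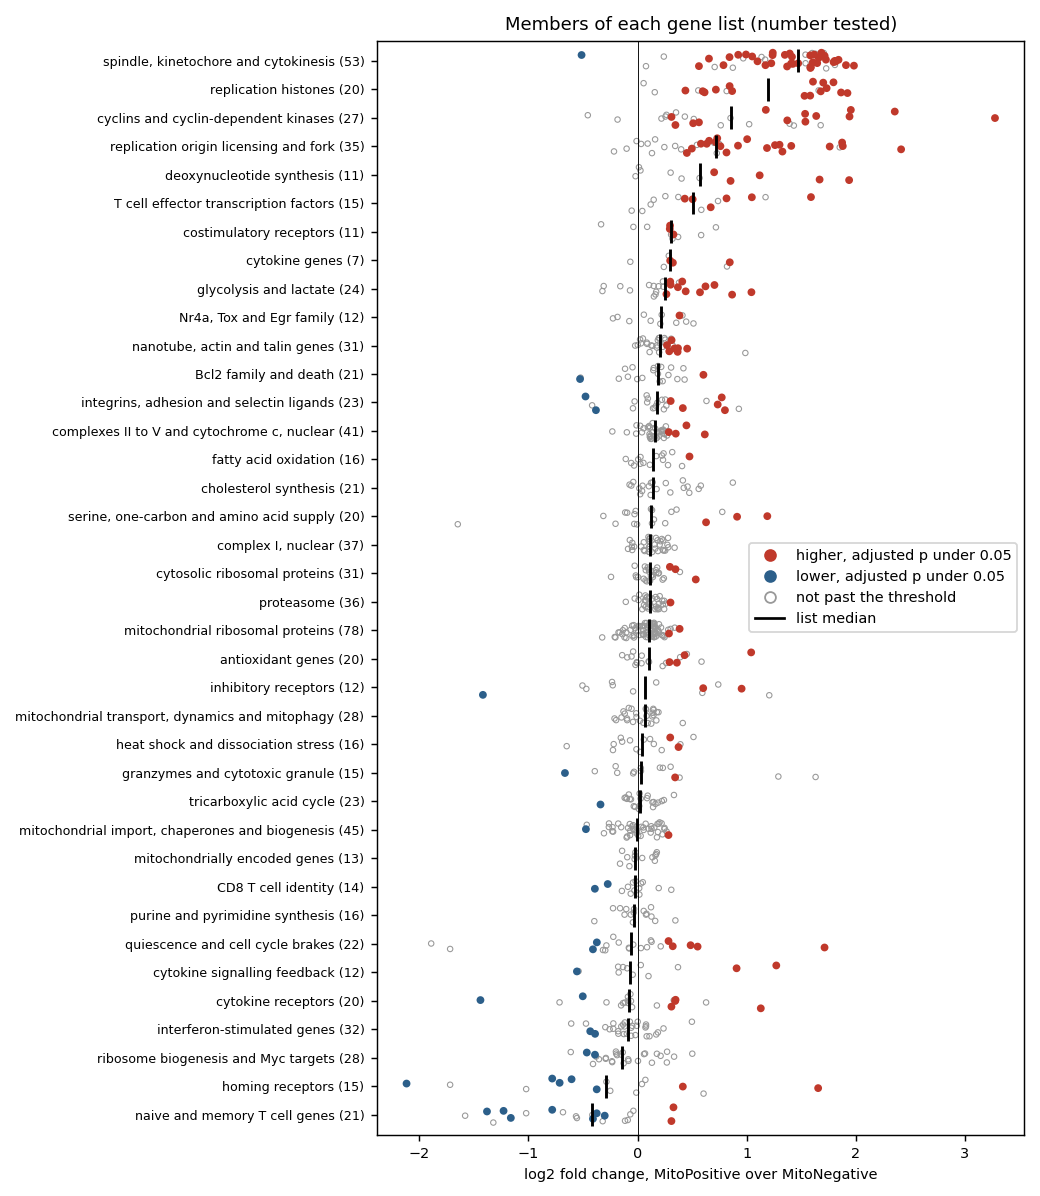
Log2 fold change, MitoPositive over MitoNegative, of each tested member of the lists with at least 7 tested members, 1 row per list in order of its median (black bar); filled red and blue points passed at an adjusted p under 0.05 and open points did not. Mitotic, histone and replication lists lie at the top, at medians of 1.47 to 0.57, and the naive and memory list at the bottom, at -0.41.

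The lists differed in how far they held when cells called G1 alone were summed. The G1 call removes cells with high scores of S phase and G2/M genes, so the loss of the cell cycle lists there (medians of 0.05, -0.02, 0.24, -0.02 and -0.07, in the order above) follows from the selection and is no result. In 10852 genes tested in G1 cells, 302 were higher and 208 lower (2.78% and 1.92%). Effector factors kept a median of 0.46 with 5 of 15 higher, the naive and memory list -0.34 with 4 lower and 2 higher, homing receptors -0.32 with 5 lower and 2 higher, glycolysis 0.17 with 6 of 24 higher, and the actin list 0.17 with 7 of 31 higher. Bhlhe40 (1.27), Rora (0.81), Cd44 (0.81), Pgk1 (0.53) and Ccr9 (-2.08) each passed in G1 cells. Samples reduced to 587 cells each and 4000 UMIs per cell gave 361 higher and 213 lower genes of 9827 (3.67% and 2.17%), with medians of 1.34 for the spindle list, 0.53 for effector factors, 0.20 for glycolysis and -0.46 for the naive and memory list.

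**Figure D5:**
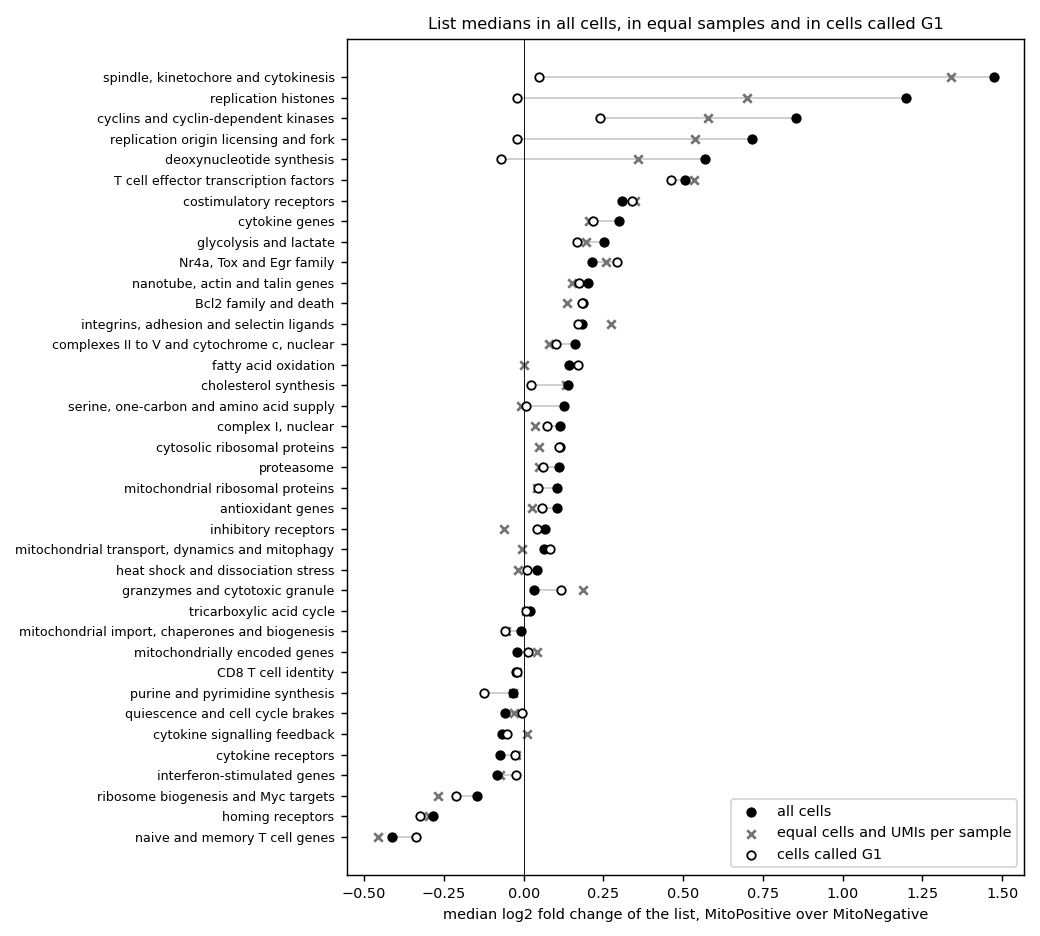
Median log2 fold change of each list, MitoPositive over MitoNegative, in all cells (filled circles), in samples of equal cells and UMIs (crosses) and in cells called G1 (open circles). The cell cycle lists move to medians of -0.07 to 0.24 in G1 cells, as that selection fixes, while effector factors stay at 0.46 and the naive and memory list at -0.34.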

How the data were processed

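Droplet libraries (Chromium 3′ v3.1, poly(dT) capture) were deposited by the authors as UMI counts per gene and barcode, with hashtag counts, and Cell Ranger 7.0.0, Seurat 4.0.5 and the build GRCm38 (mm10) are listed, without their roles, in the submitters' processing notes. The 4 libraries were read as deposited, and the culture library held 6508 barcodes, of which 6376 had at least 500 genes and 6208 were under the mitochondrial limit. Of these, 593 with an unclear hashtag (9.55%) were left out, 5 had no hashtag with 10 UMIs, and no doublet caller was run. The culture library shared 9, 7 and 1 barcodes with the 3 day 7 libraries. UMIs were summed over the cells of a sample. Samples were compared with edgeR 4.0.16 (R 4.3.3; TMM scaling, filterByExpr, robust quasi-likelihood test, group as the only term, Benjamini-Hochberg adjustment over all genes tested); the SE is the log2 fold change divided by the square root of F. All adjusted p-values are from edgeR unless DESeq2 1.42.0 is named. Single values per sample were compared by exact two-sided permutation tests, whose smallest p is 0.1. Cell cycle calls were made with scanpy 1.11.5 and HTODemux calls with Seurat 5.3.0.

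Same-donor samples came from the same donor mouse, per the deposited hashtag list, so donor numbers pair the samples by design; their deviations from the group means correlated at 0.34, 0.083 and 0.27, against -0.30 to 0.054 between donors. The labels do not say whether each donor had its own culture dish. The edgeR fit with group as the only term and the permutation tests did not use the pairing. Their p-values rest on the spread between samples of 3 donors in each group, and edgeR also shares information on spread among genes. P-values with donor as a block rest on the spread left after differences between the same 3 donors are removed. With 3 pairs, little of that spread can be measured for a single gene. Very small p-values of that fit therefore lean heavily on spread shared among genes, and not on the 3 pairs alone.

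The 45 lists hold 1028 genes, of which 919 were tested and 1 was not found. The members and lists were chosen with earlier results of these data known. Genes were named by 3 criteria: the 15 largest changes in each direction with a mean of at least 20 CPM in 1 group and 1 direction in all donors, up to 5 called members per list, and a set of standard T cell genes. Some further list members, such as Mcm2 to Mcm7, Birc5, Klf3, Gzma, Dapl1, Trdc, Eomes and Ighm, and Tmem159 were named after their values were seen. Gene positions are those of the GENCODE annotation of GRCm38. Some genes that these criteria name are not reported here.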

Additional observations from a re-analysis of the deposited data

Results flagged for a closer look

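Barcodes over the mitochondrial limit, which the comparison in the report left out, were more frequent among MitoPositive cells. They made up 3.55%, 4.49% and 3.57% of barcodes in MitoPositive samples of donors 1, 2 and 3 (36, 44 and 38 barcodes), against 1.55%, 1.20% and 1.64% in MitoNegative samples (15, 10 and 15 barcodes). The means were 3.87% ± 0.53 and 1.47% ± 0.23 (SD, n = 3 each, exact permutation test, two-sided p = 0.1, the smallest possible), and the share was higher in 3 of 3 donors. Without the limit, mitochondrially encoded UMIs averaged 2.82% in MitoPositive and 2.59% in MitoNegative samples (exact p = 0.1).

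Zfp981 was higher in the MitoPositive arm of the transferred cells, which lie outside the culture comparison. In the spleen it averaged 7.65 ± 2.07 CPM in the MitoPositive arm and 0.0964 ± 0.14 CPM in the MitoNegative arm (SD, n = 3 each, exact permutation test, p = 0.1). In the tumor it averaged 11.004 ± 1.25 CPM in the MitoPositive arm and 0.331 ± 0.57 CPM in the MitoNegative arm (SD, n = 3 each, exact permutation test, p = 0.1).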

How the results depend on the processing

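The count of 1017 genes (654 higher, 363 lower) stayed within 1.5 times under DESeq2 size factors, DESeq2, HTODemux, no mitochondrial limit, a minimum of 1500 genes, cells with Cd3 and Cd8 UMIs, Trbv14 cells and edgeR without robust estimation. It was 1552 with no filter on low counts (1029 higher), 2409 with the replicate block (1424 higher, 985 lower), 574 in samples of equal cells and UMIs (361 higher, 213 lower), which tested fewer genes, 510 in cells called G1 (302 higher, 208 lower) and 0 with hashtags 1 to 3 against 4 to 6. A hashtag ratio of 10 gave 681 genes, within 1.5 times, of which 239 were lower. A similar count did not always mean the same genes. Of the 1017 calls, DESeq2 size factors kept 1007 and DESeq2 kept 714. Of the calls tested in each setting, HTODemux kept 721 of 1003 and Trbv14 cells 675 of 919. Cells with Cd3 and Cd8 UMIs kept 1000 of 1016. Leaving out 1 sample or 1 donor gave 88 to 1651 genes, 62 to 1003 higher and 26 to 648 lower; the count of 88 was without donor 2. The cause of these shifts was not tested, beyond fewer samples or genes where stated.

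Of 124 called genes named in the text, 124 kept their call with the replicate block, 100 with HTODemux, 76 in equal cells and UMIs, 60 in G1 cells, 64 to 122 without 1 sample and 27 without donor 2. Further uncalled genes, beside those given in the report, passed with the replicate block.

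The difference in the share of cells with at least 10 spindle list UMIs, -5.72 percentage points, reversed to 5.13 at a minimum of 20 UMIs and to 5.77 without Smc4, tubulins and Stmn1. That difference kept its sign at a minimum of 5 UMIs (-11.4), with HTODemux calls (-6.31) and without thinning (-3.32). In cells called G1 the sign turned for the medians of myeloid markers (-0.18), replication origin licensing and fork (-0.021), deoxynucleotide synthesis (-0.072) and replication histones (-0.020), and for Mcm5 (-0.32), Mcm3 (-0.15), Rrm1 (-0.065), Cdk1 (-0.63), Hist1h2ap (-0.076) and Ncapd2 (-0.046); for the cell cycle genes that selection removes the cells that carry them. In Trbv14 cells it turned for myeloid markers (-0.13). With hashtags 1 to 3 against 4 to 6, which mixes the arms of the map used here, it turned for the medians of myeloid markers (-0.13), NK and gamma delta T cell markers (-0.30), replication origin licensing and fork (-0.038), deoxynucleotide synthesis (-0.12), T cell effector transcription factors (-0.0021) and cytokine genes (-0.047), and for Lef1 (0.054), Cdca3 (-0.13), Tpx2 (-0.020), Mcm5 (-0.14), Lig1 (-0.029), Mcm3 (-0.071), Ccna2 (-0.073), Ccnb1 (-0.054), Cdk1 (-0.11), Ccnd2 (-0.013), Hist1h2ap (-0.0081), Smc4 (0.083), Cst3 (-0.13), Tcrg-C2 (-0.30), Pik3ip1 (0.041), Ccr7 (0.083), Bach2 (0.028), Il7r (-0.023), Ccr9 (0.19), Ccr4 (-0.053), Cxcr3 (-0.018), Batf3 (-0.30), Bhlhe40 (-0.0021), Srgn (-0.070), Tnf (-0.073), Mif (-0.047), Il12rb1 (-0.064), Il6ra (0.017), Il6st (0.0099), Lag3 (-0.16), Tnfrsf18 (-0.059), Actb (-0.097), Actg1 (-0.14), Cfl1 (-0.15), Rac2 (-0.048), Alcam (-0.088), Itga6 (0.16), Cox5a (-0.12), Cox5b (-0.068), Atp5c1 (-0.054), Vdac3 (-0.0059), Hk2 (-0.017), Tpi1 (-0.020), Gapdh (-0.018), Asns (-0.16), Psat1 (-0.14) and Phgdh (-0.13). Depth limits genes under a few CPM, such as Ifng, Cdc6 and Pdcd1.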
